A study of Mus musculus with 48 samples.

Results

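Line differences after 36 h of induction with trichostatin A (TSA) were set against those after 36 h with dimethyl sulfoxide (DMSO) in murine erythroleukemia cells. The 8 arrays titled as 36 h TSA or 36 h DMSO were taken, 4 for each inducer, of 48 in the series. Each array carried total RNA of both of 2 lines, which are separate clones of the line T-3-Cl-2-0.fl. HD cells are its highly inducible clone and LD cells its poorly inducible clone. On 4 arrays both lines had been treated with 15 nM TSA for 36 h, and on the other 4 with 1.0% DMSO for 36 h. The remaining conditions enter the fit and are read again below. Some were the same lines under TSA or DMSO for 6, 12 or 24 h. The rest were these lines under 3.0 mM hexamethylene bisacetamide (HMBA), another polar inducer, for 6, 12, 24 or 36 h. The 4 arrays of an inducer are technical repeats, so each inducer stands for 1 pair of RNA extracts, and each kind of cell for 1 clone. No untreated cells were analysed here, so every value is a difference between lines under an inducer. Fewer cells expressing a transcript and less of it per cell cannot be told apart in such bulk RNA.

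Murine erythroleukemia cells are virus-transformed red cell precursors that are held at an immature stage. Chemical inducers let them leave the cell cycle, accumulate globin mRNA and haem, and mature towards red cells. TSA inhibits histone deacetylases and so raises histone acetylation. DMSO is the classical polar inducer of this system, and its direct target is less well defined. The arrays carried spotted cDNA clones, which the files name by plate and well. No table used here pairs these names with genes, so erythroid marker genes could not be read, and clones are given by name alone.

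The quantity compared is log2(HD/LD), the log2 ratio of HD over LD intensity, normalized within each array. A value of 1 is 2-fold more signal in HD cells. Of 21780 clones listed on at least 1 of the 8 arrays, 17723 were listed on all 8, and the 17427 of these that also had values in the remaining conditions were compared. HD over LD is the direction that the column headers and the labels' descriptions give for these ratios. It is not a settled one, because arrays 1 and 2 carry the lines in the opposite channel order from arrays 3 and 4. The labels give HD cells the same dye on every array, while the design text speaks of dye swaps. Normalized ratios of arrays 1 and 2 had correlations across clones with those of arrays 3 and 4 between -0.05 and 0.14 under TSA and between -0.27 and -0.21 under DMSO. Before normalization these correlations were between -0.34 and -0.13 under TSA and between -0.74 and -0.65 under DMSO. Repeats of one orientation had, after normalization, 0.83 and 0.52 under TSA, and 0.50 and 0.54 under DMSO. The value of an inducer is therefore the mean of the 2 pair means, and both pairs are also read apart below.

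More clones were called different between the lines under TSA than under DMSO, and most clones for which the inducers differed had a higher HD/LD ratio under TSA. Ratios were also wider under TSA over all clones, with an SD of the condition value of 0.319 under TSA and 0.194 under DMSO. Single arrays had SDs of 0.51, 0.53, 0.36 and 0.48 under TSA and of 0.36, 0.46, 0.35 and 0.35 under DMSO. The condition value averages 2 array pairs, and the negative correlation of the pairs under DMSO narrows that mean. The part of these spreads in the counts was not tested. Under TSA 824 clones (4.73% of those compared) had higher signal in HD cells and 315 (1.81%) had lower, together 6.54%. Under DMSO 13 (0.0746%) had higher signal and 23 (0.132%) lower, together 0.207%. The difference between the inducers itself passed the test for 523 clones, or 3%, of which 451 (2.59%) had a higher and 72 (0.413%) a lower log2(HD/LD) under TSA than under DMSO. The called differences had a median size of 1.06 on the log2 scale, and the smallest was 0.80. These are calls of limma with 1 value per condition and Benjamini-Hochberg adjusted p-values under 0.05. The spread was taken from a fit of the other 10 conditions of the series, with additive terms for drug and time. HMBA at 36 h, the only one of these at that time, was fitted exactly and added nothing to the spread. The spread thus came from conditions before 36 h alone. Both inducers at 36 h were assumed to vary like those earlier conditions, since each inducer had 1 pair of extracts and no repeat culture. Whether the spread was as large at 36 h was not tested. With single arrays as units and the array number as a replicate block, which measures technical spread only, the calls were 1365 for the difference, 2362 under TSA and 142 under DMSO. Median centring in place of loess gave 0 calls for the difference, with 2692 clones at an unadjusted p under 0.05. With arrays 3 and 4 turned there were 0 calls as well, with 928 such clones, and the line difference was called for 6 higher and 26 lower clones under TSA and for 1 and 14 under DMSO. Leaving array 2 out of every condition left 122 calls for the difference, 119 higher and 3 lower, and leaving out array 4 left 181, 174 higher and 7 lower. Few lower calls were made without either of these arrays. Under TSA the calls then numbered 650 without array 1, 661 without array 2 and 467 without array 4, and under DMSO 21 without array 2 or 3.

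By these calls, 811 clones had higher and 297 had lower signal in HD cells under TSA without a call under DMSO. A call under one inducer alone does not show that the inducers differ, and the difference was also called for 408 of the 811 and 43 of the 297. A further 13 clones were higher and 18 lower under both inducers. Under DMSO alone 0 were higher and 5 lower, and the difference was called for 3 of these 5. No clone was called in opposite directions under the 2 inducers. For 59 clones, 30 of them higher and 29 lower under TSA than under DMSO, the difference was called although neither line difference was.

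A second reading used size alone: at least 2-fold between the lines in the mean, with the same sign on all 4 arrays of an inducer. It was met by 151 clones under TSA, or 0.866%, of which 127 (0.729%) were higher and 24 (0.138%) lower, and by 33 under DMSO, or 0.189%, of which 12 (0.0689%) were higher and 21 (0.121%) lower. Under TSA only, it was met by 115 clones that were higher in HD cells and by 11 that were lower. Under both inducers 12 were higher and 13 lower, and under DMSO only 0 were higher and 8 lower. The limit at 2-fold cuts through a continuous range. The 5 clones just above it under TSA lay between 1.00 and 1.01 and the 5 just below it between 0.994 and 0.999. Without array 3 the clones under TSA only numbered 280 (208 higher, 72 lower), and without array 1 those under DMSO only 13 (3 higher, 10 lower). With an array left out, the same sign is asked of fewer arrays and is easier to meet. Without array 2 the 12 clones higher under both were 7, and without array 4 the 11 lower under TSA only were 6. These 11 were 5 with an offset of 50 added to the intensities, and also 5 without the dimmest 25% of clones. With arrays 3 and 4 turned, 11 clones were higher and 54 lower under TSA only, 0 and 19 under both, and 3 and 13 under DMSO only.

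**Figure D1:**
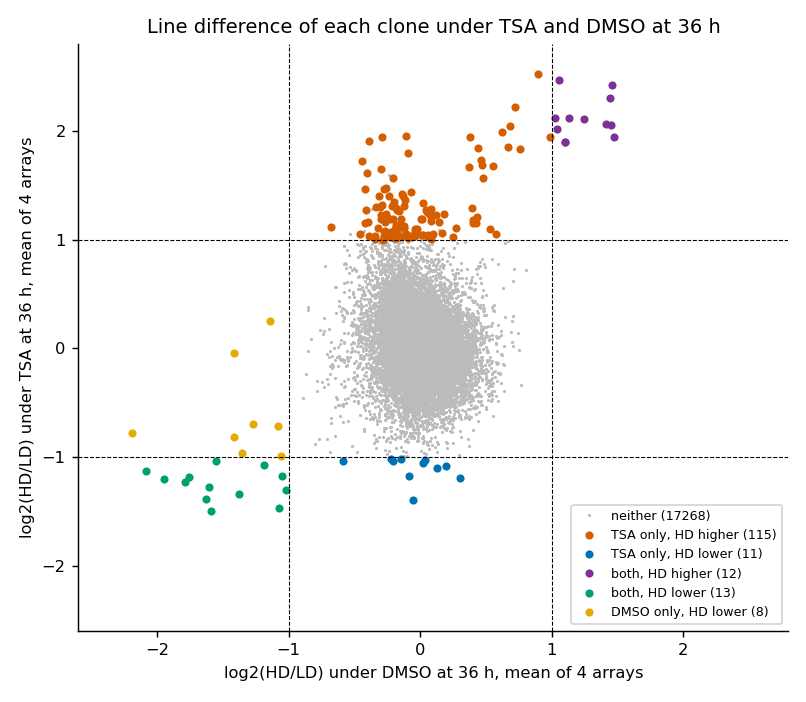
Each point is 1 of 17427 clones, with its log2(HD/LD) at 36 h under TSA on the vertical and under DMSO on the horizontal axis, each the mean over 4 arrays. Dashed lines mark 2-fold. The 115 clones that were 2-fold higher under TSA only lie above the cloud, and the 12 clones higher under both continue it to the upper right, while the 13 lower under both and the 8 lower under DMSO only lie to the left.

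Clones whose line difference differed between the inducers were named where the 4 TSA arrays and the 4 DMSO arrays did not overlap and the difference was at least 2-fold. That held for 203 clones (1.16%) with the higher and 26 (0.149%) with the lower value under TSA, together 1.31%. Without overlap at any size were 9.96% of clones, 5.51% with the higher and 4.45% with the lower value under TSA. Of the 203, 196 were also called by limma, and so were 20 of the 26. The 2-fold clones were 13 higher and 18 lower with arrays 3 and 4 turned, so that most were then lower under TSA. They were 294 higher and 87 lower without array 1, and 355 and 126 without array 3, where fewer arrays make a lack of overlap easier to meet. With an offset of 50 they were 155 higher and 6 lower. The clones below are the 2 in each direction with the largest difference on the array pair that showed less of it.

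H4001E04 had log2(HD/LD) of 0.80, 1.54, 0.40 and 1.02 on the 4 TSA arrays, against -0.22, -0.42, -0.89 and -0.78 on the 4 DMSO arrays. All TSA arrays were thus above 0 and all DMSO arrays below it. TSA minus DMSO was 1.52, with 95% confidence limits of 0.99 and 2.06 (adjusted p = 0.00611 in limma). H4062H10 had 2.07, 1.56, 0.65 and 1.32 under TSA, against 0.53, -0.12, -0.61 and -0.33 under DMSO. Only DMSO array 1 came near the lowest TSA array. Its difference was 1.53, with limits of 1.07 and 1.99 (adjusted p = 0.00341 in limma). The first pair of arrays gave 1.61 and the second 1.46.

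In the other direction, H4019H07 had -0.98, -1.42, -1.53 and -0.83 under TSA, against 0.43, 0.45, 0.12 and 0.19 under DMSO. Every TSA array was below 0 and every DMSO array above it. TSA minus DMSO was -1.49, with limits of -1.97 and -1.01 (adjusted p = 0.00379 in limma). H4040G06 had -0.66, -1.64, -0.60 and -0.69 under TSA, against -0.27, 0.49, 0.37 and 0.89 under DMSO, so that TSA array 2 lay apart from the other 3. Its difference of -1.27 (adjusted p = 0.0158 in limma) was -0.83 and no longer called without array 2 (adjusted p = 0.213) and -1.11 without array 4 (adjusted p = 0.0593). Of these 4 clones H4062H10 had a mean log2 intensity of 9.71, against a median of 9.19 over all clones. H4001E04 with 7.43, H4040G06 with 7.41 and H4019H07 with 6.50 were dimmer.

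**Figure D2:**
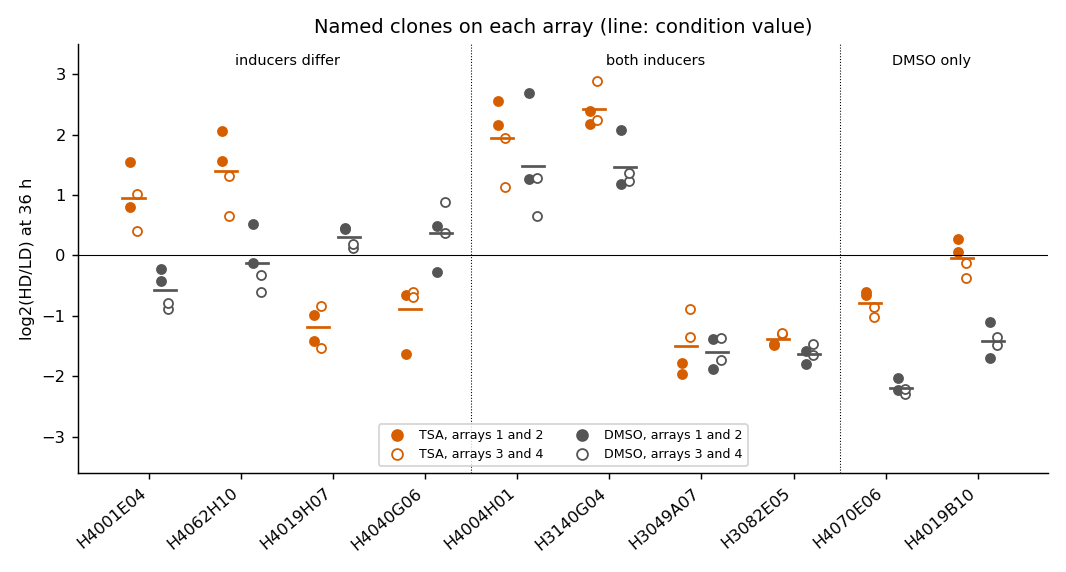
Log2(HD/LD) at 36 h of the 10 named clones on each array, TSA left of DMSO. Filled points are arrays 1 and 2, open points arrays 3 and 4, and the lines are the values of the condition. The first 4 clones separate the inducers without overlap, the next 4 lie on the same side of 0 on all 8 arrays, and the last 2 are farther below 0 under DMSO.

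Clones that differed 2-fold under both inducers were then compared between them. All 12 higher clones had a larger value under TSA, between 1.90 and 2.47, than under DMSO, between 1.03 and 1.47. Their median difference was 0.86, which was called in limma for 6 of the 12, and TSA exceeded DMSO for 12 of 12 clones on each pair of arrays. Both pairs used the same extracts. By their names 5 of the 12 clones sat in consecutive wells, and whether these are separate transcripts was not tested. Of the 13 lower clones 10 were closer to 0 under TSA than under DMSO, with a median difference of 0.24, called for 1. Their values lay between -1.50 and -1.04 under TSA and between -2.09 and -1.02 under DMSO.

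H4004H01 was among the higher clones, with 2.17, 2.55, 1.13 and 1.94 on the TSA arrays, against 1.26, 2.69, 1.29 and 0.66 on the DMSO arrays. The arrays of the inducers overlapped, and TSA minus DMSO was 0.47, with limits of 0.02 and 0.93 (adjusted p = 0.28 in limma). H3140G04 had 2.39, 2.17, 2.89 and 2.24 under TSA, against 1.17, 2.08, 1.23 and 1.36 under DMSO. Its lowest TSA array was above its highest DMSO array, and the difference was 0.96, from 0.46 to 1.47 (adjusted p = 0.0372 in limma). With arrays 3 and 4 turned its mean under TSA was -0.14. On the linear scale H3140G04 had 5.36-fold more signal in HD than in LD cells under TSA and 2.75-fold more under DMSO.

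H3049A07 was lower in HD cells on all 8 arrays, with -1.97, -1.79, -0.88 and -1.35 under TSA, against -1.39, -1.89, -1.73 and -1.37 under DMSO. Its difference was 0.10, between limits of -0.43 and 0.63 (adjusted p = 0.902 in limma). The first pair of arrays gave -0.24 and the second 0.43. H3082E05 had -1.49, -1.47, -1.30 and -1.29 under TSA, against -1.59, -1.80, -1.65 and -1.46 under DMSO. The difference was 0.24, from -0.29 to 0.77 (adjusted p = 0.715 in limma). For both clones the limits lay within 2-fold. They rest on 1 pair of extracts per inducer and on the spread of the earlier conditions. A difference of 2-fold in other cultures is therefore not excluded.

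The 8 clones 2-fold lower in HD cells under DMSO only all had TSA values closer to 0, by 0.06 to 1.41 on the log2 scale, and the difference was called for 3. H4070E06 had -0.66, -0.60, -1.03 and -0.86 under TSA, against -2.03, -2.23, -2.30 and -2.22 under DMSO. It was lower in HD cells on all 8 arrays, and it was also called under TSA (adjusted p = 0.00586), so the size of the deficit and not its presence parted the inducers. The difference was 1.41, from 0.94 to 1.88 (adjusted p = 0.00447 in limma). H4019B10 had 0.05, 0.27, -0.37 and -0.12 under TSA, against -1.11, -1.70, -1.49 and -1.36 under DMSO. Here the TSA arrays fell on both sides of 0, with a mean of -0.04, and the difference was 1.37, from 0.87 to 1.87 (adjusted p = 0.00633 in limma). Under HMBA at 36 h both were also low, with -2.26 for H4070E06 and -1.71 for H4019B10. With arrays 3 and 4 turned, their DMSO means were 0.0663 and 0.00815.

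The pairs of arrays were then read apart. A dye bias of a clone that is equal under both inducers cancels in TSA minus DMSO within a pair, though it does not cancel in the line difference of one pair. Across the 17427 clones, TSA minus DMSO on arrays 1 and 2 had a correlation of 0.30 with that on arrays 3 and 4, and of 0.19 over the clones that were not called. Both pairs were hybridised with the same extracts, so this compares arrays and not cultures. Turning arrays 3 and 4 only changes the sign of this correlation, to -0.30, and is no further result. After median centring in place of loess the correlation was 0.089. The clones chosen by size on one pair were read on the other. Of 824 clones with at least 2-fold higher values under TSA and no overlap on arrays 1 and 2, 682 or 82.8% were above 0 on arrays 3 and 4, where 49.2% of all clones were. The median there was 0.43. Of 415 lower clones 291 or 70.1% were below 0. In the other direction, 175 of 223 higher clones, or 78.5%, and 80 of 128 lower clones, or 62.5%, kept their sign on arrays 1 and 2, where 51.7% of all clones were above 0.

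The size differed between the pairs. The 451 clones called higher had a median difference of 1.40 on arrays 1 and 2 and of 0.79 on arrays 3 and 4, and the 72 called lower had -1.25 and -0.74. The SD of the difference over all clones was 0.55 and 0.40 on these pairs. The lists of clones 2-fold apart shared 77 higher clones, 9.34% of the list from arrays 1 and 2 and 34.5% of the list from arrays 3 and 4. They shared 9 lower clones, 2.17% and 7.03%, and 9 clones were in both lists with opposite signs. The limma fit on either pair alone called 0 clones for the difference, with 2221 on arrays 1 and 2 and 1330 on arrays 3 and 4 at an unadjusted p under 0.05. For the line difference under TSA the fits of the single pairs called 901 clones on arrays 1 and 2 and 167 on arrays 3 and 4, and under DMSO 25 and 24. Under DMSO 1648 and 1820 clones had an unadjusted p under 0.05 on these pairs, against 1014 on all arrays. Under TSA these were 3437 and 2756, against 3586.

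**Figure D3:**
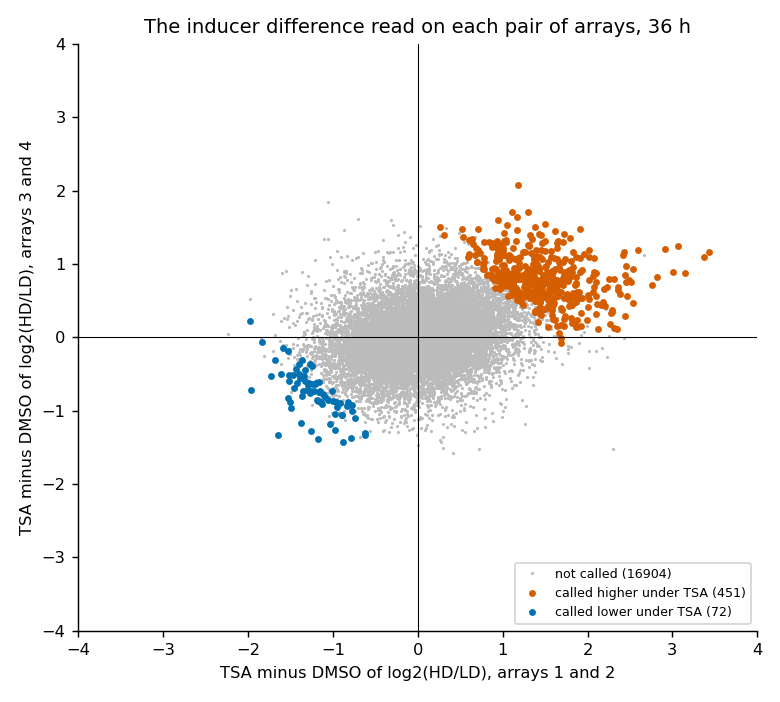
TSA minus DMSO of log2(HD/LD) at 36 h for each of 17427 clones, on arrays 3 and 4 (vertical) against arrays 1 and 2 (horizontal). Clones called by limma on all arrays are coloured, 451 higher and 72 lower under TSA. The called clones lie almost wholly to the upper right and lower left of 0, and farther from 0 along the horizontal axis. They were called on the mean of both pairs, which favours the same sign on each.

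The clones that differed 2-fold were then read in the other conditions, whose arrays and extracts did not enter that choice. Under TSA the 115 clones 2-fold higher under TSA only had a median log2(HD/LD) of -0.07 at 6 h, 0.04 at 12 h and 0.58 at 24 h. All 115 were above 0 at 24 h under TSA. Over all compared clones this share was 50.1% and the median 0.00054. Under DMSO these 115 clones had -0.09, -0.0011 and 0.12 at those times, and -0.13 at 36 h. Under HMBA they had 0.34 at 24 h and 0.06 at 36 h. At 24 h 107 of the 115, or 93.0%, were above 0 under HMBA, and 91, or 79.1%, under DMSO. Over all clones these shares were 46.7% and 52.2%, so values above 0 at 24 h were not particular to TSA. The 11 clones 2-fold lower under TSA only had -0.12, -0.20 and -0.64 under TSA at 6, 12 and 24 h. At 24 h under TSA 11 of 11 were below 0, and so were 8692 of all 17427 clones. Of these 11, 9 were below 0 at 24 h under HMBA and 4 under DMSO.

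The test of TSA minus DMSO was repeated at 24 h. In limma it called 0 clones, with 2480 at an unadjusted p under 0.05. The tests share data, since each takes its spread partly from the conditions of the other, and the 24 h arrays so helped to set which clones were called at 36 h. Of the 451 clones called higher at 36 h, 342 or 75.8% had TSA above DMSO at 24 h, where 52.1% of all clones did, and their median difference was 0.21. Of the 72 called lower, 59 or 81.9% had TSA below DMSO, where 47.9% of all clones did, with a median of -0.33. An unadjusted p under 0.05 in the same direction was reached by 16 of the 451, or 3.55%, against 6.51% over all clones. It was reached by 8 of the 72, or 11.1%, against 7.72%. The 36 h values enter the spread of the 24 h test, so clones chosen for a large 36 h difference tend to have a wider spread there. Their shares are thereby lowered in advance. Neither these shares nor the 0 calls can show that a difference was absent at 24 h. At 6 and 12 h the 451 clones had TSA above DMSO for 45.2% and 54.1%, where all clones had 48.6% and 50.03%. The 72 had TSA below DMSO for 68.1% and 61.1%, where all clones had 51.4% and 49.97%. The medians lay between -0.10 and 0.04. The 451 clones were also mostly above 0 at 24 h under DMSO, with 368 of them, or 81.6%, and a median of 0.18. Under HMBA at 24 h 385, or 85.4%, were above 0, with a median of 0.21. Over all clones these shares were 52.2% under DMSO and 46.7% under HMBA. At 36 h under DMSO 408 of the 451 were below 0, with a median of -0.25. The choice of a high difference favours low DMSO values, so this last count is a description only.

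The clones 2-fold higher under TSA only were not of one kind under HMBA. Among the 15 of 115 for which the difference between the inducers was not called, the median under HMBA at 36 h was 0.74, with 0.27 under DMSO. Among the 100 for which it was called, the median was 0.02 under HMBA and -0.17 under DMSO, but 11 of the 100 were at least 2-fold higher under HMBA too. All 12 clones higher under both TSA and DMSO were at least 2-fold higher under HMBA at 36 h, with a median of 2.14. The 13 clones lower under both were below 0 in all 12 conditions, with medians between -1.88 and -0.67. In the 8 clones lower under DMSO only, the median at 36 h was -0.75 under TSA, -1.73 under HMBA and -1.31 under DMSO.

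**Figure D4:**
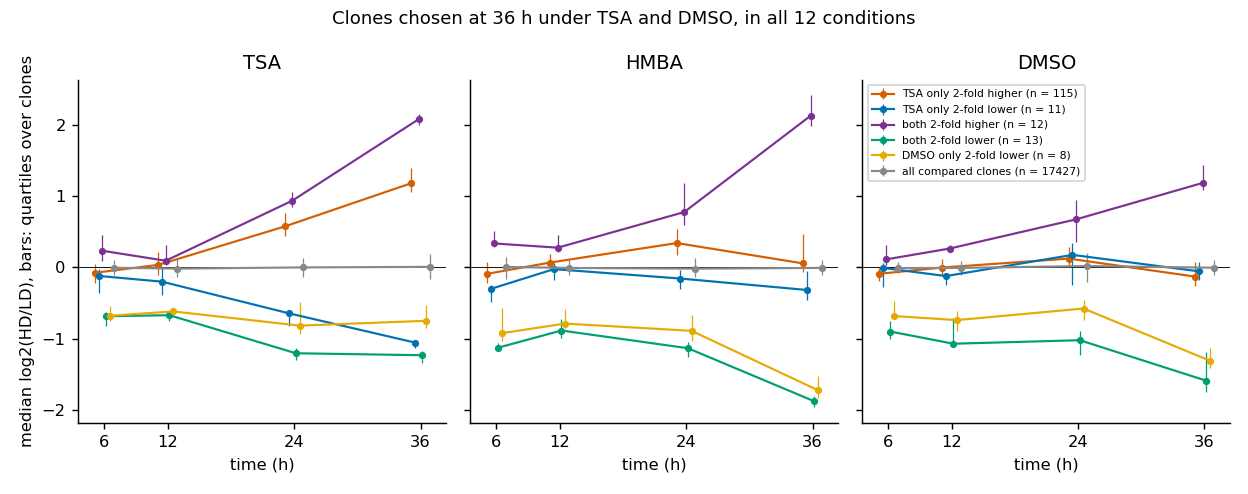
Median log2(HD/LD) of each set of clones chosen at 36 h under TSA and DMSO, at 6, 12, 24 and 36 h under TSA, HMBA and DMSO, with quartiles over clones as bars. The clones higher under TSA only reach 0.58 under TSA and 0.34 under HMBA at 24 h, and are near 0 at 36 h under HMBA and DMSO. The clones higher under both reach 2.14 at 36 h under HMBA.

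A ratio does not say which line moved, and the intensities of the single lines were compared between the inducers after the arrays had been scaled to a common distribution. For the 451 clones called higher, the median of TSA minus DMSO in log2 intensity was 0.67 in HD cells and -0.40 in LD cells. HD was higher under TSA for 387 of them and LD for 127. The LD median was -1.02 on the first pair of arrays and 0.11 on the second, while the HD median was 0.50 and 0.88. A higher HD level was thus read on both pairs, and a lower LD level on one pair only. Without scaling between arrays the medians were 1.16 in HD and 0.04 in LD cells, but all compared clones then had medians of 0.42 and 0.40, so relative to all clones the sides were as before. For the 72 clones called lower the medians were -0.54 in HD and 0.44 in LD cells, and 0.11 and 1.09 without scaling between arrays, so that the HD sign turned while staying below that of all clones. These are estimates without a test in each line, and that the lines part follows from the choice. Among the named clones, H4001E04 had 0.39 in HD and -1.13 in LD cells, and H4062H10 had 0.12 and -1.41. H4019H07 had 0.04 in HD and 1.53 in LD cells, and H4040G06 had -0.48 and 0.78. In all 4 the larger part of the difference between inducers lay in LD cells at this scaling.

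The intensities of the clones that were lower in HD cells were then read by set. All 21 clones 2-fold lower under both inducers or under DMSO only had higher intensity under TSA than under DMSO in both lines. HD cells had between 1.16 and 3.19 more on the log2 scale, with a median of 2.29, and LD cells between 0.82 and 2.56 more, with a median of 1.78. Among all compared clones the 99th percentile was 1.64 in HD and 1.51 in LD cells. The direction was the same for all 21 on each pair of arrays and without scaling between arrays. The 11 clones lower under TSA only had other values, with medians of -0.86 in HD and -0.06 in LD cells, and 3 of the 11 were higher in both lines. Without scaling between arrays those medians were 0.014 and 0.83, against 0.42 and 0.40 over all clones, so both signs turned. Of the 12 clones higher under both, 11 were likewise higher under TSA in both lines, with medians of 1.91 in HD and 0.93 in LD cells. The exception was H4004H01, with -0.79 in HD and -1.26 in LD cells.

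**Figure D5:**
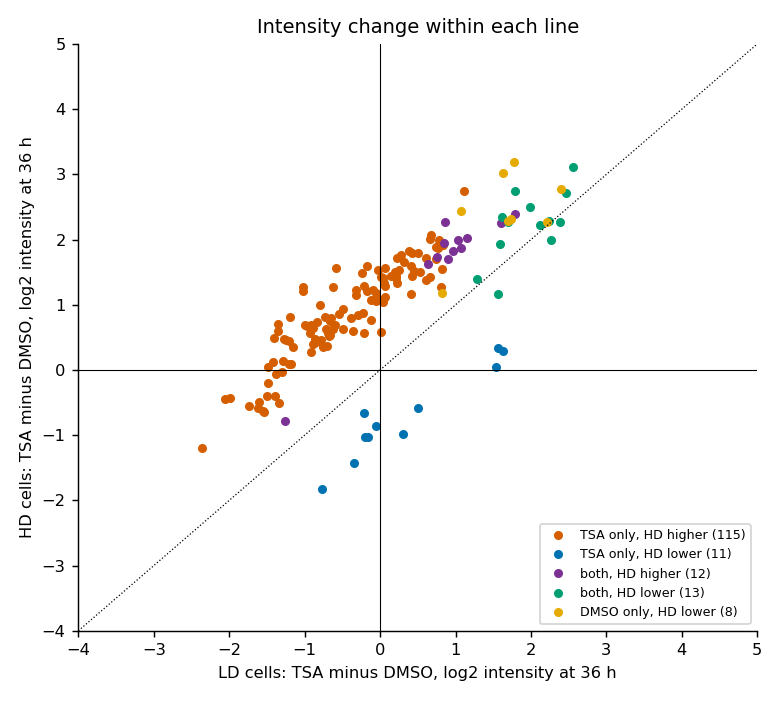
Log2 intensity under TSA minus that under DMSO at 36 h within HD cells (vertical) and LD cells (horizontal), for the clones of each set. The dotted line marks equal change in both lines. The 21 clones lower in HD cells under both inducers or under DMSO only lie in the upper right, with medians of 2.29 in HD and 1.78 in LD cells.

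Brightness and place on the array moved with these sets, and their part in the results was not tested. Each array was deposited as 2 parts, and 4.54% of the 7795 clones of part 2 were called for the difference between the inducers, against 1.75% of the 9632 clones of part 1. The correlation of the difference between the array pairs was 0.461 in part 2 and 0.118 in part 1, at median log2 intensities of 9.23 and 9.17. Of the 451 clones called higher 295 lay in part 2, and of the 72 called lower 59 did. The clones higher under both were 11 of 12 in part 2, whereas 10 of the 13 lower under both were in part 1. Of the clones called lower, 48.6% were among the dimmest 25% of all clones, against 16.9% of those called higher. The clones called higher carried 151 of the 238 plate numbers. The plate with the most had 17 among 88 compared clones, and its uncalled clones had a median difference of 0.21. Of the 12 clones higher under both, 5 sat in consecutive wells by their names, with values between 2.06 and 2.12 under TSA and between 1.03 and 1.45 under DMSO. The well before them had 1.83 and 0.76 and the well after them 0.22 and 0.22. Whether such neighbours hold the same transcript, or share material between wells, was not tested.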

How the data were processed

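Two-colour cDNA arrays measured HD and LD RNA together. Each array was deposited as files with an intensity per clone in a control (LD) and a target (HD) column, per the file headers and the labels' descriptions. The files give no background, and the sources used here do not give how the authors corrected it or chose clones. A deposited table of log2 ratios of the same arrays, normalized by the authors in a way not given here, was used as an alternative only. Its 8 columns for TSA and DMSO at 36 h correlated with the ratios computed here at 0.996 to 0.999, with medians between -0.04 and 0.016, so its scale is log2 and it runs target over control like them, which leaves the dye question as it is. How it was centred is unknown.

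Here a loess curve (span 0.3) of log2(HD/LD) against mean log2 intensity was subtracted within each part of each array. A condition's value was the mean of the means of arrays 1 and 2 and of arrays 3 and 4. The 12 condition values were fitted in limma 3.58.1 (R 4.3.3). TSA and DMSO at 36 h had coefficients of their own. Drug and time were additive for the other 10 conditions, leaving 4 residual degrees of freedom. These came from the conditions before 36 h alone, since HMBA at 36 h was the only one of the 10 at its time. P-values are two-sided, moderated, and Benjamini-Hochberg adjusted over 17427 clones. The fit was tested first on simulated data with independent normal noise and no effect of dye or orientation. It called 30 of 100 clones changed by 1 on the log2 scale and 88 of 100 changed by 2, with 3 false calls. A clone that was not called can thus still differ 2-fold. Single-line intensities were quantile-scaled between arrays. The precision is limited by the 1 pair of extracts per condition and the 1 clone per kind of cell, and the arrays are technical repeats.

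Same-numbered arrays of TSA and DMSO at 36 h deviated together from their condition means (r between 0.30 and 0.39 across clones), so the numbers pair arrays by orientation. The fit with that block takes single technical arrays as units.

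Named clones follow one rule: the 2 highest and 2 lowest, by the weaker array pair for the difference, by the weaker inducer for both, and by the DMSO value for DMSO only. Lists of erythroid and other genes could not be applied to unnamed clones. The clone sets, rules and comparison were chosen with earlier results of these data known. Alternatives covered the direction of arrays 3 and 4, centring, the authors' table, an offset, dim clones, single arrays and pairs, the fold and the conditions giving the spread. Fits on single pairs of arrays, the test at 24 h and the single-line intensities were added after seeing the data.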

Additional observations from a re-analysis of the deposited data

Results flagged for a closer look

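The test of the difference between the inducers found 523 clones whose line difference was not the same under TSA and DMSO at 36 h. Among the named clones this held for H4001E04, with TSA minus DMSO of 1.52, H4062H10 with 1.53, H4019H07 with -1.49 and H4040G06 with -1.27. It also held for H3140G04 with 0.96, H4070E06 with 1.41 and H4019B10 with 1.37. On single arrays, H4040G06 had -1.64 on array 2 of TSA at 36 h, where the other 3 arrays lay between -0.69 and -0.60. Chance sets an array apart in about 1 of 20 groups, and 20 groups of 4 arrays were looked at.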

How the results depend on the processing

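Calls for TSA minus DMSO (523), for the lines under TSA (1139) and under DMSO (36), and clones 2-fold different under TSA only (126), DMSO only (8) and both (25) or 2-fold apart between inducers (229) were recomputed. With arrays 3 and 4 turned they numbered 0, 32, 15, 65, 16, 19 and 31. Values of the opposite sign then were -0.0279 for TSA minus DMSO of H4001E04, 0.0106 for that of H4040G06, -0.14 for H3140G04 under TSA, 0.0663 for H4070E06 and 0.00815 for H4019B10 under DMSO. Median centring gave 0, 307 and 17 calls and 194 clones under TSA only. An offset of 50 gave 900, 1754 and 63 calls and 5 clones under DMSO only, and without the dimmest 25% of clones 67 were called under DMSO. On arrays 1 and 2 alone 877, 111 and 58 clones were under TSA only, DMSO only and both, and 1239 apart. On arrays 3 and 4 alone 198 and 51 were under TSA only and DMSO only, and 351 apart. Either pair alone gave 0 calls for TSA minus DMSO, and arrays 3 and 4 gave 167 under TSA. At 1.5-fold there were 908, 73, 51 and 862 clones. With a replicate block over single arrays there were 1365, 2362 and 142 calls, and without that block 524, 1368 and 92. Leaving out each array in turn gave 122 to 388, 467 to 1296 and 21 to 38 calls. It gave 101 to 280 clones under TSA only (280 without array 3), 7 to 13 under DMSO only, 18 to 25 under both, and 255 to 481 apart (381 without array 1, 481 without array 3). Each count stayed within 1.5 times with the authors' table, without the HMBA conditions in the fit, or over all clones on the 8 arrays, where these applied, and 498 of the 552 clones the authors' table called for the difference were among the 523. Of the named clones' values under alternatives, 179 kept direction and call, 35 kept direction only and 5 turned. Clones that an alternative dropped are not in this tally. That held for H4001E04, H4019H07 and H4040G06 without the dimmest 25% of clones, and for H4019H07 without array 3 or array 4. In the counts by size, fewer arrays make the same sign and a lack of overlap easier to meet. The part of this in the counts, and the cause of the other moves, was not tested. Without the dimmest 25% of clones, 731 of 13070 were called for TSA minus DMSO, 592 higher and 139 lower. With them the calls were 451 higher and 72 lower, and 412 of the 731 were among the 523.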
